A study of Gallus gallus with 4 samples.

Results

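The genes examined here were those whose transcript level in the chick trunk stood lower at each successive somite stage, from embryos with 4 somites (4S) through 7S and 10S to 13S. They were chosen by their measured levels. The unique molecular identifiers (UMIs, each marking 1 captured RNA molecule) of all cells with at least 2500 UMIs were summed per stage and scaled to CPM, so that every library had the same total. A gene was taken when its CPM was lower at every step, reached at least 50 CPM at 4S and 10 UMIs at 13S, and stood at least 25% higher at 4S than at 13S. The ratio of a gene is its CPM at 4S divided by that at 13S. Genes of several large families were left out by name, among them ribosomal proteins, collagens, laminins, keratins and most subunits of the respiratory chain. This gave 207 of the 21328 genes in the table, 200 of them with a symbol and 7 known only by an Ensembl identifier.

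Cells came from chicken embryos, from tissue caudal to the third somite pair, with no treatment, genetic change or sort. Each stage was 1 droplet library of 3′ ends in which at least 4 embryos were pooled. Stage differences therefore carry exact 95% Poisson intervals, which cover counting error only, and no test. In a sum over a whole library, fewer cells of a type and less RNA per cell cannot be told apart. The minimum of 2500 UMIs removed 2012 cells, all of them from 7S, and left libraries of 4025 to 8669 cells with 24490943 to 64453991 UMIs. The 7S library was the shallowest (a median of 3758 UMIs per cell against 7182 to 8849 in the others), the share of UMIs from the mitochondrial genome ran from 2.52% at 4S to 4.90% at 13S, and 63 cell barcodes occurred in more than 1 library. The rule was also applied without mitochondrial genes in the totals and with every cell thinned to 2500 UMIs, as given below. The part of depth and of the mitochondrial share in the stage differences was not tested beyond this.

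At these stages the trunk is laid down from head to tail. Progenitors around the node and the regressing primitive streak feed the notochord, the neural tube and the paraxial mesoderm, while somites pinch off in front of them and begin to make retinoic acid. The embryo is leaving gastrulation, a period known for NODAL and WNT signalling and for the last expression of epiblast genes, and it grows fast, with high demand for ribosomes, secretion and mitochondrial energy.

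Among the 2620 genes that met both minimum levels, 303 stood lower at every step and 218 (8.32%) also passed the minimum of 25%, of which 11 were left out by name. The mirrored rule, with levels that were higher at each step, gave 75 genes. These counts describe the selection. Of the 207 genes, 25 had a 4S level at least 2 times the 13S level and 139 a ratio under 1.5, and the median ratio was 1.40. Over all 2620 genes it was 1.09, a log2 shift of 0.12 towards 4S, the stage on which the minimum was set. Divided by that median, 120 genes still passed the minimum and the lowest ratio was 1.15. Counts chosen from the lists and families below are to be read against the 8.32%. How many of the 2620 genes were higher at 4S was not counted, so counts of list genes higher at 4S have no such background. Together the 207 genes took 3.49, 3.04, 2.67 and 2.42% of all UMIs from 4S to 13S. Series of 4 values are given in this order of stages throughout.

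The intervals at 4S and 13S were apart for all 207 genes, which the minimum levels and ratio that chose them made almost certain. At every one of the 3 steps they were apart for 80 genes, at 2 steps for 98 and at 1 step for 29. The largest step was that from 4S to 7S for 94 genes, from 7S to 10S for 76 and from 10S to 13S for 37. When every cell was thinned at random to 2500 UMIs, the share of cells with a UMI of the gene was lower at 13S than at 4S for all 207, and lower at each step for 174 (for 5 without thinning). These intervals and shares come from the counts that chose the genes, so they describe the selection and do not support it. Just inside the ratio lay ETFDH (64.5 CPM at 4S and 51.5 at 13S) and ADRM1 (109.6 and 87.5). Just outside it lay ARPC5L (90.2 and 72.3), IFRD1 (86.5 and 69.5) and ERP29 (142 and 115).

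**Figure D1:**
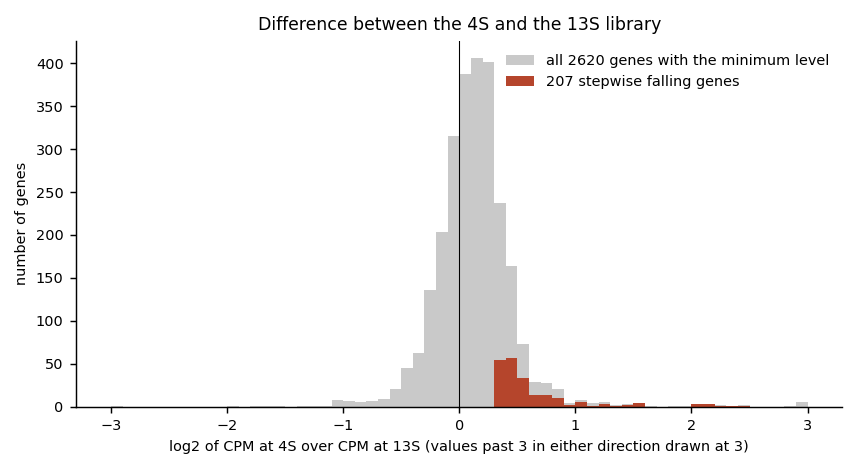
Histogram of the log2 ratio of CPM at 4S to CPM at 13S, with the number of genes on the vertical axis, for all 2620 genes with the minimum levels (grey) and for the 207 stepwise falling genes (red). The red genes start at the minimum of 25% that chose them, and most lie near it, with 25 genes at a ratio of 2 or more.

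Membership depended on how the libraries were scaled and how their cells were weighted, also for some genes far above the minimum ratio. Of the 207 genes, 95 met the rule under all 6 of the following: all cells, totals without mitochondrial and very abundant genes, TMM factors, DESeq2 size factors, thinned cells, and equal weight for each cell class. In the last of these, cells assigned to no class were weighted as a class too. At least 5 of the 6 kept 133 genes, and 2 genes, EMC2 and POLR3B, were kept by none. Among the 25 genes with a ratio of at least 2, 15 were kept by all 6 and 24 by at least 4, the exception being RGN with 3. ENSGALG00000029446 and DRAXIN, which had the largest ratios, were kept by 5. Of the other genes named in the text, CTH and HMGCS1 were kept by 1. CCNB1, DAD1, ETFDH and TMED2 were kept by 2, and CSRP1, ERGIC2, RPN1 and SDAD1 by 3.

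By what they are known to do, the 207 genes fell into 11 groups, drawn up after the genes were known, and 22 genes were given no role. The same groups were not counted over all genes with the minimum levels, so their sizes have no background. The largest group was the endoplasmic reticulum, Golgi and secretory route with 39 genes, followed by the mitochondrion with 29. There were 18 genes each for patterning, signalling and transcription and for nuclear RNA processing, 17 for the nucleolus and ribosome assembly, and 16 each for the cell cycle with protein degradation and for cytosolic metabolism and redox. Smaller groups were the lysosome and endosome (13), adhesion, cytoskeleton and cell surface (11), membrane transport (6) and DNA methylation and chromatin (2). The patterning group had a median ratio of 2.12 and held 12 of the 25 genes at or above 2. Medians of the secretory, mitochondrial and nucleolar groups were 1.35, 1.38 and 1.32, and none of their genes reached 2.

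The patterning genes included all 3 genes of retinoic acid supply that met the minimum levels, out of 12 genes of a retinoic acid list in the table. STRA6 is the cell-surface receptor through which retinol is taken up, RDH10 oxidises retinol to retinaldehyde, and ALDH1A2 makes retinoic acid from it. ALDH1A2 stood at 259.9 (255 to 265), 115 (111 to 119.5), 79.4 (77.3 to 81.6) and 57.4 (55.4 to 59.5) CPM, a ratio of 4.53. STRA6 stood at 164 (159.5 to 168), 137 (133 to 142), 82.7 (80.5 to 85.0) and 57.1 (55.1 to 59.1) CPM. RDH10 had 80.8 (78.0 to 83.8), 71.5 (68.2 to 75.0), 61.5 (59.6 to 63.5) and 45.3 (43.5 to 47.1) CPM. The largest step of ALDH1A2 came before 7S, that of STRA6 between 7S and 10S and that of RDH10 after 10S. GREB1L, a gene linked to retinoic acid response, had 64.8, 36.8, 23.4 and 22.4 CPM.

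These genes were tested across cell classes. The choice of genes used totals per stage and not classes, but the class sums are parts of those totals. A gene high in a single class may have met the minimum levels or the fall through that class. The class tests are therefore not independent of the choice. Clusters were built without the genes of the rule and 28 of 38 were assigned to 8 classes by marker genes, with 6733 cells (26.5%) left unnamed. UMI sums of each class were compared with all other cells of the same library by edgeR's quasi-likelihood test with the library as a block. Those other cells included the unnamed ones. An unnamed cluster of 757 cells scored highest for caudal progenitor markers and had TBXT and NKAIN4 among its leading genes. Another, of 841 cells, scored highest for surface ectoderm markers and had CXCL14 among its leading genes. Class values are means ± SD over 4 libraries. Log2 differences carry an SE derived from the F statistic of the test, so it adds nothing beyond the p-value. Named genes called higher were so in 4 of 4 libraries unless stated. Where a further class is listed without values, that number is not given. The classes given for a gene are not always all those in which it was called higher. The 4 libraries are the 4 stages, so the SD includes the difference between stages. ALDH1A2 had 445 ± 274 CPM in paraxial mesoderm-like cells against 61.2 ± 61.1 CPM elsewhere (log2 difference 3.14 ± 0.16, adjusted p = 4.2e-06). In lateral and intermediate mesoderm-like cells it had 141 ± 48.6 CPM, which did not pass the test (log2 difference 0.40 ± 0.17, adjusted p = 0.13). Its mean was at most 41.0 CPM in each of the other classes. RDH10 had 241 ± 46.3 CPM in paraxial mesoderm-like cells against 26.1 ± 15.1 CPM elsewhere (log2 difference 3.37 ± 0.21, adjusted p = 1.1e-05). At 4S, 1560 of the 3021 UMIs of RDH10 lay in this class, and in the other cells alone it stood below the minimum level. STRA6 was higher in both notochord-like cells (303 ± 62.4 CPM, log2 difference 1.66 ± 0.13, adjusted p = 7.2e-08) and paraxial mesoderm-like cells (239 ± 102 CPM, log2 difference 1.58 ± 0.06, adjusted p = 5.5e-07), and also in neural-like cells (162 ± 77.8 CPM, log2 difference 0.59 ± 0.08, adjusted p = 7.8e-04). The 3 genes thus overlapped in paraxial mesoderm-like cells, and STRA6 alone of them was called higher in the notochord-like and neural-like classes.

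Within the paraxial mesoderm-like cells ALDH1A2 itself stood at 830.2, 436, 309.9 and 203 CPM, a decline at each step. STRA6 did the same there, with 358, 282, 189 and 126 CPM. RDH10 was level over the first stages and lower at the last, with 260.4, 279, 250.0 and 174 CPM. In this class each of the 3 genes was lower at 13S than at 4S.

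Genes of gastrulation and the epiblast were a further set. Of 6 genes on a list of gastrulation and Nodal pathway genes that met the minimum levels, all 6 were higher at 4S than at 13S and 2 were chosen, GDF3 and TBXT. The list's median ratio was 2.41 against 1.09 over all 2620 genes. GDF3, a TGFβ-family ligand of the Nodal branch, stood at 58.4 (56.0 to 60.9), 31.0 (28.8 to 33.3), 25.1 (23.9 to 26.3) and 21.3 (20.1 to 22.5) CPM. TBXT, the T-box factor of streak, tail bud and notochord, had 433 (426 to 439.7), 345 (338 to 352), 212 (209 to 216) and 208 (204 to 212) CPM, with little change after 10S. SMAD2Z, the Z-linked copy of the Nodal and activin transducer SMAD2, had 60.7, 40.1, 34.7 and 30.2 CPM, and its counts are uncertain where reads of a near-identical copy could be shared.

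GDF3 was called higher in 1 class, with 85.3 ± 42.0 CPM in paraxial mesoderm-like cells against 22.9 ± 13.2 CPM elsewhere (log2 difference 1.98 ± 0.13, adjusted p = 1.5e-05). At 4S, 887 of its 2183 UMIs lay in this class, and in the other cells alone it stood below the minimum level. The test of GDF3 in this class is therefore not independent of the choice. The mean of GDF3 was at most 29.6 CPM in each of the other 7 classes. TBXT had 1962 ± 187 CPM in notochord-like cells against 249 ± 99.3 CPM elsewhere (log2 difference 3.09 ± 0.12, adjusted p = 2.3e-11). In caudal progenitor-like cells it had 749 ± 315 CPM (log2 difference 1.68 ± 0.04, adjusted p = 1.2e-09). By stage, TBXT stood at 1127, 891, 499.9 and 479 CPM in caudal progenitor-like cells and at 2195, 2029, 1797 and 1827 CPM in notochord-like cells, so the fold between 4S and 13S was larger in the former.

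Of 5 epiblast and pluripotency genes that met the minimum levels, 3 were higher and 2 lower at 4S than at 13S, and 2 were chosen. The summed level of the list's genes did not fall stepwise, with 1111, 2025, 1159 and 1121 CPM. Pou5f3, the chick class V POU factor related to OCT4, had 76.7 (74.0 to 79.6), 37.0 (34.7 to 39.5), 24.5 (23.3 to 25.8) and 18.8 (17.6 to 20.0) CPM, a ratio of 4.09. It was called higher in none of the 8 classes, with class means between 26.4 and 48.2 CPM, and stood lower at 13S than at 4S in all 8. In caudal progenitor-like cells Pou5f3 ran from 109 CPM at 4S to 16.2 CPM at 13S, and in neural-like cells from 114 CPM at 4S to 13.3 CPM at 13S. DNMT3A, a de novo DNA methyltransferase, had 189.5, 158, 143 and 125 CPM, and HELLS, a chromatin remodeller required for DNA methylation, had 223, 199, 184 and 144 CPM. Both were higher in neural-like cells than in other cells (DNMT3A log2 difference 0.33 ± 0.06, adjusted p = 0.0037 and HELLS log2 difference 0.54 ± 0.12, adjusted p = 0.01). Without the 7S library the call on HELLS was lost (adjusted p = 0.0661). HELLS was also called higher in lateral and intermediate mesoderm-like cells.

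Several further patterning genes were higher in caudal progenitor-like cells. DRAXIN, a secreted axon guidance protein that also antagonises WNT signalling, had 53.4 (51.1 to 55.8), 46.2 (43.6 to 49.0), 26.5 (25.3 to 27.8) and 10.5 (9.65 to 11.4) CPM over all cells, a ratio of 5.08, the second largest of all. It had 81.2 ± 58.2 CPM in caudal progenitor-like cells against 27.7 ± 14.4 CPM elsewhere (log2 difference 1.45 ± 0.13, adjusted p = 1.2e-05). At 4S, 646 of its 1995 UMIs lay in this class, and in the other cells alone it stood below the minimum level. The test of DRAXIN in this class is therefore not independent of the choice. Within caudal progenitor-like cells DRAXIN stood at 148, 108, 52.3 and 16.6 CPM. NKAIN4, a membrane protein that interacts with the sodium pump, was also called higher there (132 ± 58.3 CPM against 46.2 CPM elsewhere).

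WNT5B, a ligand of the non-canonical WNT branch, stood at 88.9, 78.8, 49.7 and 35.9 CPM, and the WNT effector TCF7 at 51.6, 38.1, 31.1 and 29.7 CPM. These were 2 of 8 WNT pathway genes that met the minimum levels, of which 4 were higher and 4 lower at 4S than at 13S. HOXB1, the most anterior HOXB gene, had 223, 218, 155 and 134 CPM. All 3 were higher in caudal progenitor-like cells than in other cells (WNT5B log2 difference 0.89 ± 0.05, adjusted p = 5.1e-07, TCF7 log2 difference 0.71 ± 0.06, adjusted p = 6.3e-06 and HOXB1 log2 difference 0.76 ± 0.04, adjusted p = 4.0e-07). TCF7 was also called higher in surface ectoderm-like cells. At 4S, 346 of the 1927 UMIs of TCF7 lay in caudal progenitor-like cells. In the other cells alone TCF7 stood below the minimum level, so its test in that class is not independent of the choice. HOXB1 was 1 of only 2 HOX genes of paralogue groups 1 to 6 that met the minimum at 4S, while 4 genes of that list were chosen by the mirrored, rising rule.

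**Figure D2:**
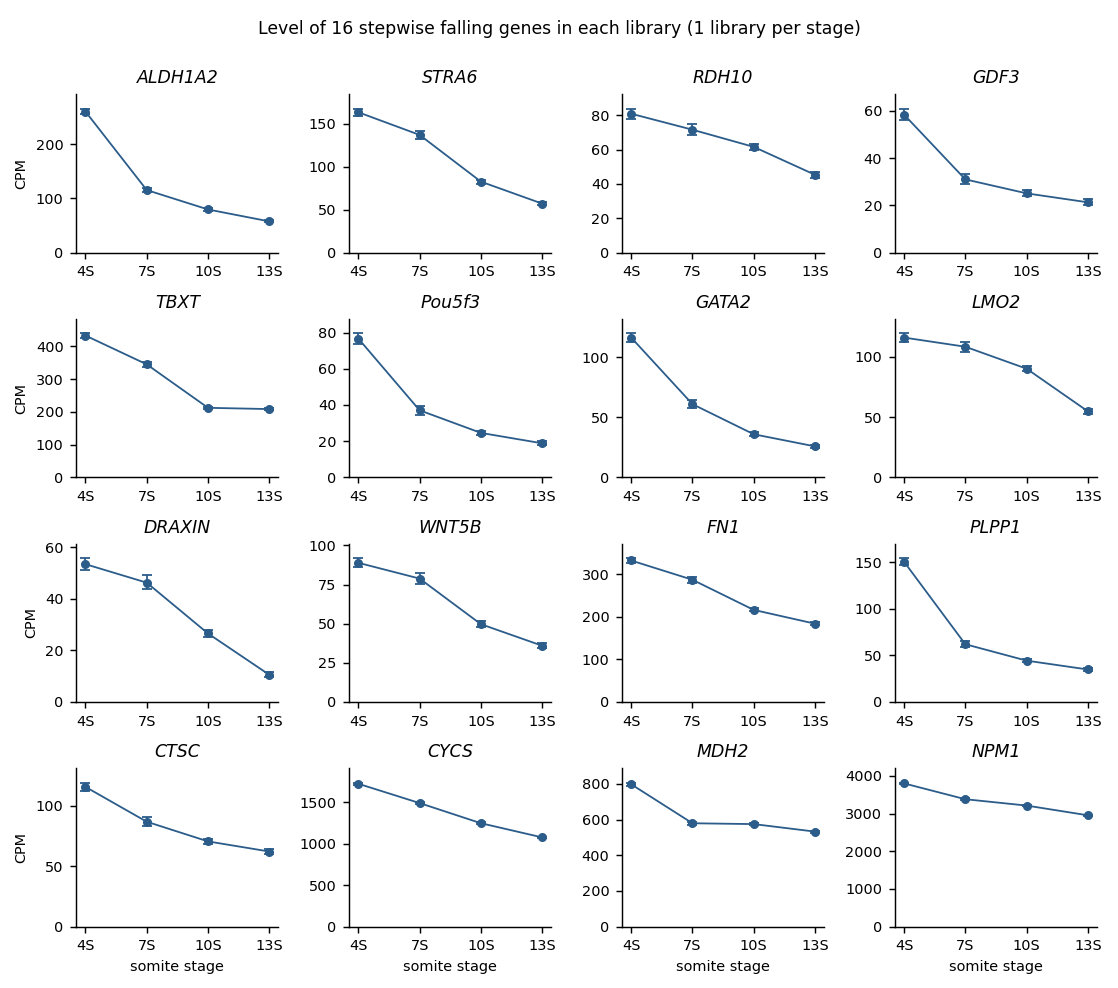
CPM of 16 stepwise falling genes (vertical axes, starting at 0) in the 4 libraries from 4S to 13S (horizontal axes), with exact 95% Poisson intervals as bars, which cover counting error only. ALDH1A2, Pou5f3, GATA2 and PLPP1 had their largest step between 4S and 7S, whereas LMO2 and RDH10 had it between 10S and 13S, and NPM1, the most abundant of the genes, ran from 3801 to 2954 CPM.

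GATA2 and LMO2 are transcriptional regulators of blood and endothelial progenitors, and GATA2 also acts in non-neural ectoderm and lateral mesoderm. GATA2 stood at 117 (113 to 120.1), 61.0 (57.9 to 64.2), 35.9 (34.4 to 37.4) and 25.7 (24.4 to 27.1) CPM, a ratio of 4.53. Its highest class was surface ectoderm-like (118 ± 46.6 CPM, log2 difference 1.44 ± 0.25, adjusted p = 0.0019), before lateral and intermediate mesoderm-like (91.4 ± 39.5 CPM, log2 difference 0.96 ± 0.13, adjusted p = 7.2e-04) and blood and endothelial-like (83.3 ± 30.2 CPM, log2 difference 0.72 ± 0.20, adjusted p = 0.018, higher in 3 of 4 libraries). The call in the lateral class was lost when libraries were clustered without integration (log2 difference 0.15, adjusted p = 0.837), and that in the blood class without the 10S library (adjusted p = 0.164) and with DESeq2 (adjusted p = 0.0538). In notochord-like and neural-like cells GATA2 was at 3.37 and 3.74 CPM. Within lateral and intermediate mesoderm-like cells its level ran from 142 CPM at 4S to 52.2 CPM at 13S. Unnamed clusters of 791 and 735 cells scored highest for lateral and intermediate mesoderm markers and had GATA2 among their leading genes. Their cells counted among the other cells in each test, and the order of classes leaves them out.

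LMO2 had 116 (113 to 119.5), 108 (104 to 113), 90.2 (87.9 to 92.5) and 54.7 (52.8 to 56.8) CPM. It was called higher in 1 class by the largest log2 difference of all, with 2691 ± 847 CPM in blood and endothelial-like cells against 26.9 ± 17.1 CPM elsewhere (log2 difference 6.88 ± 0.36, adjusted p = 3.5e-09). At 4S, 2689 of its 4336 UMIs lay in this class, and in the other cells alone it stood below the minimum level. LMO2 was thus chosen through the class in which it was called higher, so this test is not independent of the choice. LMO2 was among the listed blood and endothelial markers and TBXT among the caudal ones, and neither was used to build or name classes. Within the blood and endothelial-like class LMO2 stood at 1839, 3824, 2775 and 2324 CPM, so it was not lower at 13S than at 4S there. In the other 7 of the 8 classes LMO2 was lower at 13S than at 4S. The parts of cell shares and of levels in the other cells in its fall were not tested. Blood and endothelial-like cells made up 3.80, 1.95, 2.84 and 2.32% of the cells by stage. With each class and the unnamed cells given equal weight the ratio of LMO2 was 0.895, the only one of the 207 under 1.

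Within the blood and endothelial-like class 185 of 206 genes were lower at 13S than at 4S, against 70.0% of all genes with the minimum levels. Examples were RHOU with 251, 252, 216 and 121 CPM and CYCS with 2021, 1700.0, 1303 and 1133 CPM. Some genes called higher in the class were not lower at 13S there. EHD3, a membrane-shaping protein of recycling endosomes, had 689 ± 201 CPM in blood and endothelial-like cells against 172 ± 31.1 CPM elsewhere (log2 difference 1.98 ± 0.19, adjusted p = 1.8e-06), and within the class it stood at 407, 687, 820.4 and 843 CPM. PALD1, a phosphatase-related protein known from endothelium, had 331 ± 57.0 CPM in blood and endothelial-like cells against 169 ± 25.4 CPM elsewhere (log2 difference 0.97 ± 0.13, adjusted p = 5.0e-05) and ran within it from 248 CPM at 4S to 337 CPM at 13S. TSPAN6, a tetraspanin, had 133 ± 28.5 CPM in blood and endothelial-like cells against 44.8 ± 6.52 CPM elsewhere (log2 difference 1.56 ± 0.15, adjusted p = 2.1e-06) and within it ran from 93.7 CPM at 4S to 147 CPM at 13S. All 3 were higher at 13S than at 4S inside this class while lower over the whole library. PALD1 was also called higher in caudal progenitor-like cells, and TSPAN6 in notochord-like and surface ectoderm-like cells.

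CSRP1, a LIM-domain protein of the actin cytoskeleton, had 161 ± 19.1 CPM in lateral and intermediate mesoderm-like cells against 63.5 ± 7.91 CPM elsewhere (log2 difference 1.36 ± 0.06, adjusted p = 3.7e-07) and was also higher in blood and endothelial-like cells (116 ± 44.1 CPM, log2 difference 0.50 ± 0.13, adjusted p = 0.011, higher in 3 of 4 libraries), a call that was lost without the 7S library (adjusted p = 0.098). RHOU, a small GTPase of cell shape, had 151 ± 10.8 CPM in lateral and intermediate mesoderm-like cells against 63.7 ± 8.21 CPM elsewhere (log2 difference 1.27 ± 0.06, adjusted p = 1.1e-06) and was also higher in blood and endothelial-like (210.2 ± 61.5 CPM, log2 difference 1.45 ± 0.11, adjusted p = 1.7e-07) and paraxial mesoderm-like cells (104 ± 12.0 CPM, log2 difference 0.54 ± 0.05, adjusted p = 1.0e-04). Over all cells CSRP1 had 91.8, 82.6, 81.5 and 64.9 CPM, and RHOU had 86.1, 84.7, 78.8 and 64.6 CPM. For both, the step from 10S to 13S was the largest.

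FN1 and MPZL3 were called higher in both surface ectoderm-like and endoderm-like cells. FN1 encodes fibronectin, the matrix protein along which mesoderm migrates, and it stood at 333 (327 to 339), 288 (281 to 294), 217 (213 to 220.2) and 184 (180.5 to 188) CPM. FN1 had 935 ± 129 CPM in surface ectoderm-like cells against 195 ± 77.9 CPM elsewhere (log2 difference 2.40 ± 0.18, adjusted p = 8.7e-06), and in endoderm-like cells 688 ± 229.9 CPM (log2 difference 1.44 ± 0.08, adjusted p = 4.6e-16). MPZL3, an immunoglobulin-like membrane protein, had 240.0 ± 71.5 CPM in surface ectoderm-like cells against 42.8 ± 18.0 CPM elsewhere (log2 difference 2.60 ± 0.14, adjusted p = 6.7e-07), and in endoderm-like cells 229 ± 50.4 CPM (log2 difference 2.06 ± 0.11, adjusted p = 4.0e-16). CXCL14, a chemokine of epithelia, had 208 ± 29.3 CPM in surface ectoderm-like cells against 48.0 ± 22.6 CPM elsewhere (log2 difference 2.33 ± 0.32, adjusted p = 4.2e-04), and its mean was lowest in endoderm-like cells (3.33 CPM). Within that class CXCL14 stood at 168, 214, 210.5 and 239 CPM, higher at 13S than at 4S, whereas in caudal progenitor-like cells it ran from 141 CPM at 4S to 9.11 CPM at 13S.

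PLPP1, a phosphatase of lipid signals at the cell surface, and RGN, the calcium-binding protein regucalcin, declined steeply inside a class. PLPP1 stood at 151 (147 to 155), 62.0 (58.9 to 65.2), 44.4 (42.7 to 46.0) and 34.8 (33.3 to 36.4) CPM over all cells and at 939.9, 178, 85.0 and 37.7 CPM in surface ectoderm-like cells. In neural-like cells PLPP1 ran through 450.3, 143, 82.5 and 46.0 CPM. RGN was at 148, 47.2, 46.0 and 36.8 CPM over all cells and at 558, 183, 102 and 41.5 CPM in surface ectoderm-like cells. Both were thus far lower at 13S than at 4S inside the class. Over the 4 libraries PLPP1 was higher in surface ectoderm-like cells (log2 difference 1.70 ± 0.39, adjusted p = 0.0088), a call that was lost without the 7S library (adjusted p = 0.0779), and in neural-like cells (log2 difference 1.18 ± 0.17, adjusted p = 9.4e-04). RGN was higher in surface ectoderm-like (log2 difference 1.62 ± 0.27, adjusted p = 0.0015) and endoderm-like cells (log2 difference 1.72 ± 0.10, adjusted p = 4.0e-15).

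DKK3, a secreted protein of the Dickkopf family, had 242 ± 85.9 CPM in endoderm-like cells against 62.7 ± 23.8 CPM elsewhere (log2 difference 1.95 ± 0.20, adjusted p = 2.1e-09) and was higher in paraxial mesoderm-like cells as well (log2 difference 1.03 ± 0.16, adjusted p = 0.0023). It was also called higher in notochord-like cells. DKK3 ran through 222, 129, 75.9 and 64.0 CPM in paraxial mesoderm-like cells but through 127, 258, 336 and 246 CPM in endoderm-like cells, in opposite directions between 4S and 13S. ATP1B1, a subunit of the sodium pump, had 110.2, 96.1, 50.7 and 45.6 CPM over all cells and was higher in endoderm-like cells (152 ± 57.6 CPM, log2 difference 1.02 ± 0.13, adjusted p = 1.2e-07). SLC35E3, a member of the nucleotide sugar transporter family, had 105, 55.4, 44.8 and 35.0 CPM and was also higher there (log2 difference 0.97 ± 0.12, adjusted p = 1.5e-07).

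Notochord-like cells held 45 genes called higher (21.7%, against 15.4% of all genes tested and 13.3% of the 2620), led by TBXT. More of the 207 genes, 77 (37.2%), were called lower there, against 38.7% of the 2620. ERGIC2, a protein that cycles between the endoplasmic reticulum and the Golgi, had 351 ± 85.7 CPM in notochord-like cells against 94.3 ± 10.4 CPM elsewhere (log2 difference 1.90 ± 0.10, adjusted p = 5.9e-10). CTSV, a lysosomal cysteine protease, was higher there (295 ± 45.6 CPM, log2 difference 1.57 ± 0.15, adjusted p = 7.2e-07), and within the class it stood at 263, 261, 297 and 358 CPM. CTSV was also called higher in caudal progenitor-like, endoderm-like and surface ectoderm-like cells. CTH, the enzyme that makes cysteine from cystathionine, had 343 ± 81.5 CPM in notochord-like cells against 153 ± 21.5 CPM elsewhere (log2 difference 1.19 ± 0.12, adjusted p = 2.1e-06) and ran from 327 CPM at 4S to 449.6 CPM at 13S within that class. CTH met the rule under only 1 of the 6 other scalings and weightings. LZTS1, a leucine-zipper protein, was at 58.7 (56.3 to 61.2), 52.1 (49.3 to 55.0), 20.0 (18.9 to 21.1) and 14.7 (13.6 to 15.7) CPM over all cells, with 79.5 ± 32.1 CPM in notochord-like cells (log2 difference 1.33 ± 0.15, adjusted p = 6.2e-06). SELENOP2, of the selenium-carrying selenoprotein P family, had 69.3, 39.8, 25.0 and 14.5 CPM and was higher in notochord-like cells (log2 difference 0.91 ± 0.15, adjusted p = 2.1e-04). SELENOP2 was also called higher in endoderm-like and surface ectoderm-like cells.

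KLHL9, a substrate adaptor of a ubiquitin ligase, had 113, 81.5, 56.4 and 40.9 CPM, and RRBP1, a ribosome-binding protein of the rough endoplasmic reticulum, had 68.3, 54.0, 40.3 and 35.1 CPM. Both were higher in notochord-like cells (KLHL9 log2 difference 0.91 ± 0.11, adjusted p = 1.5e-05 and RRBP1 with 99.8 ± 19.7 CPM), as was the G protein subunit GNAI3 (log2 difference 0.71 ± 0.07, adjusted p = 7.5e-07). ENSGALG00000013001, with no symbol, was higher there too (172 ± 16.9 CPM, log2 difference 1.67 ± 0.10, adjusted p = 7.1e-09). ENSGALG00000029446, likewise without a symbol, had the largest ratio of all genes, 5.60, with 54.6, 37.3, 22.1 and 9.74 CPM. It was called higher in caudal progenitor-like cells and in no other class.

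OLFM1, a secreted olfactomedin-domain protein of neural tissue, had 179.7 ± 89.2 CPM in neural-like cells against 65.4 ± 18.0 CPM elsewhere (log2 difference 1.36 ± 0.10, adjusted p = 2.2e-05) and a similar level in paraxial mesoderm-like cells (155 ± 65.0 CPM, log2 difference 1.36 ± 0.10, adjusted p = 3.2e-05). RBM24, an RNA-binding protein of muscle development, had 108 ± 47.7 CPM in paraxial mesoderm-like cells against 32.1 ± 12.9 CPM elsewhere (log2 difference 1.74 ± 0.07, adjusted p = 7.6e-07). At 4S, 849 of the 2288 UMIs of RBM24 lay in this class, and in the other cells alone it stood below the minimum level. This test is therefore not independent of the choice. RBM24 was also called higher in notochord-like cells. Over all cells OLFM1 had 103, 76.3, 63.9 and 56.5 CPM and RBM24 61.2, 59.7, 35.0 and 26.0 CPM, and the intervals of RBM24 at 4S and 7S overlapped.

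**Figure D3:**
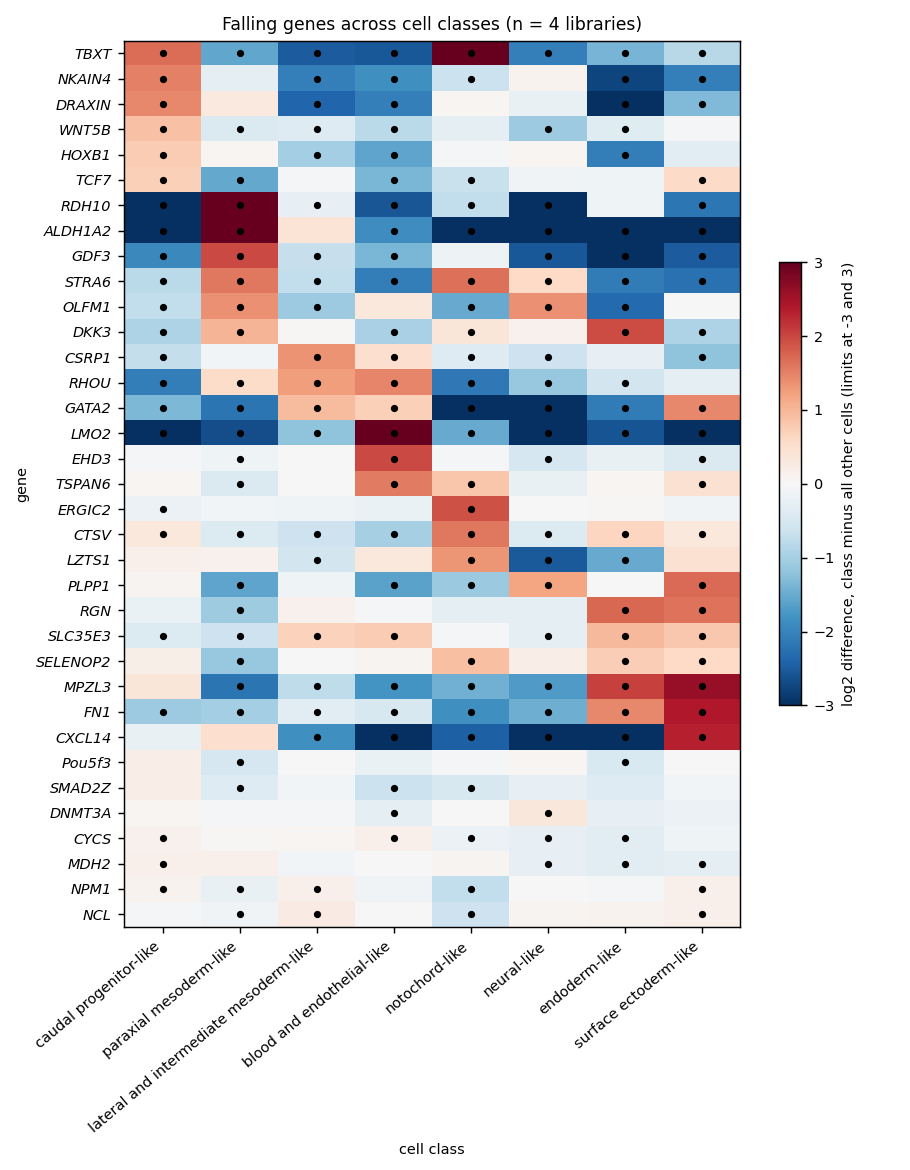
Log2 difference between each of 8 cell classes (columns) and all other cells for 35 stepwise falling genes (rows), from the edgeR fit over 4 libraries, with colours limited to the range from -3 to 3 and a black dot where the adjusted p was under 0.05. LMO2 reached 6.88 in blood and endothelial-like cells and RDH10 3.37 in paraxial mesoderm-like cells, whereas Pou5f3 was called higher in no class.

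Across all 207 genes, 162 were called higher in at least 1 class and 45 in none. A log2 difference of at least 1 was reached by 34 genes in all, by 14 of the 25 genes with a ratio of at least 2 and by 8 of the 139 with a ratio under 1.5. The index tau, which is 0 for equal means in all classes and 1 for a single class, had a median of 0.23 over the 207 genes and 0.17 over the 2620, and of 0.62 for the 25 steepest genes against 0.18 for the 139 least steep. The counts of 162 and 34 were not made over all genes tested, so they have no background and say nothing particular about these genes. The counts and the medians of tau are descriptions without a test.

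Read against the genes tested in the same class, the counts of genes called higher were near the background in some classes and above it in others. In caudal progenitor-like cells 26 of 207 (12.6%) were higher, against 11.3% of all genes tested, and in paraxial mesoderm-like cells 25 (12.1%) against 12.9%. Neural-like cells had 21 (10.1%) against 12.4%. In lateral and intermediate mesoderm-like cells the count was 50 (24.2%) against 12.2%, in blood and endothelial-like cells 35 (16.9%) against 11.4% and in notochord-like cells 45 (21.7%) against 15.4%. Endoderm-like cells had 39 (18.8%) against 12.3% and surface ectoderm-like cells 50 (24.2%) against 17.1%. Among the 2620 genes with the minimum levels the share was 22.8% in caudal progenitor-like, 14.5% in paraxial mesoderm-like, 20.5% in lateral and intermediate mesoderm-like and 10.3% in blood and endothelial-like cells. It was 13.3% in notochord-like, 11.9% in neural-like, 12.0% in endoderm-like and 17.2% in surface ectoderm-like cells. The excess in lateral and intermediate mesoderm-like cells was thus small against these genes, and the caudal progenitor-like share was lower. Genes called lower numbered from 30 in the lateral and intermediate mesoderm-like class (14.5%, against 10.8% of the 2620) to 77 in the notochord-like class (37.2% against 38.7%). From 4S to 13S, lateral and intermediate mesoderm-like cells ran from 17.6 to 13.1% of cells and blood and endothelial-like from 3.80 to 2.32%. Notochord-like cells ran from 4.92 to 3.10% and endoderm-like from 3.65 to 1.74%. Higher were caudal progenitor-like (11.7 to 13.4%), paraxial mesoderm-like (17.4 to 21.4%), neural-like (6.14 to 10.7%) and surface ectoderm-like cells (6.63 to 9.92%). The part of these shares in the counts was not tested.

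Some of these counts leaned on single libraries or on the integration. The lateral and intermediate mesoderm-like count was 9 without integration, 26 without the 7S library and 23 without 10S, and the caudal progenitor-like count was 14 without integration. Without 10S the blood and endothelial-like count was 14 and the surface ectoderm-like count 28, and without 7S the surface ectoderm-like count was 30 and the neural-like count 13.

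Within classes the lower level at 13S was seen nearly throughout, which describes the same stages that chose the genes. Counting genes with at least 20 UMIs at 4S and 13S together, 206 of 207 were lower at 13S in caudal progenitor-like cells, 204 of 207 in paraxial mesoderm-like, 202 of 207 in lateral and intermediate mesoderm-like, 202 of 207 in neural-like and 199 of 207 in surface ectoderm-like cells. The counts were 185 of 206 in blood and endothelial-like, 183 of 205 in notochord-like and 172 of 200 in endoderm-like cells, the classes with the fewest cells. Most genes with the minimum levels were also lower at 13S within classes. Their share ran from 62.7% in lateral and intermediate mesoderm-like to 75.1% in surface ectoderm-like cells. Of 199 genes with enough UMIs in all 8 classes, 134 were lower in all 8, 45 in 7, 16 in 6 and 4 in fewer. This last count was not made over all genes with the minimum levels. The median ratio was highest in surface ectoderm-like cells (1.55, against 1.19 over the 2620 genes) and lowest in endoderm-like cells (1.29 against 1.09).

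**Figure D4:**
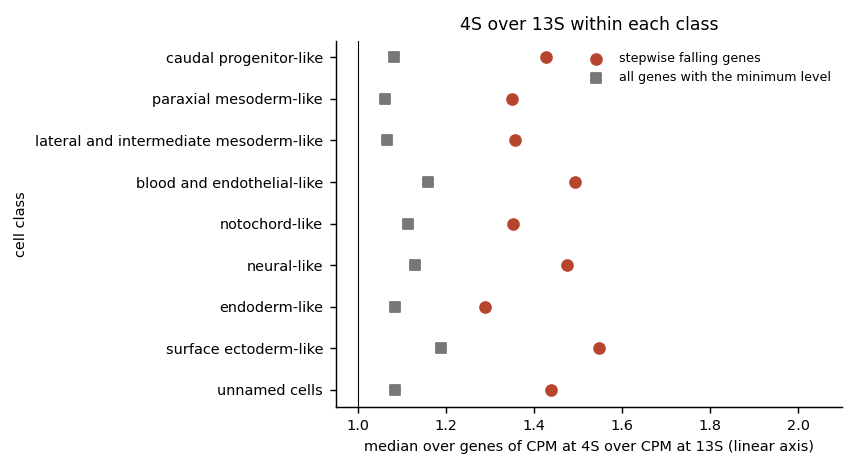
Median ratio of CPM at 4S to CPM at 13S within each cell class (linear axis) for the stepwise falling genes (red circles) and for all genes with the minimum levels (grey squares). The falling genes lay to the right in every class, from 1.29 in endoderm-like to 1.55 in surface ectoderm-like cells, and all genes together lay between 1.06 and 1.19.

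With each of the 8 classes and the unnamed cells given the same weight in each library, 206 of the 207 genes had a higher level at 4S. Of the 207, 189 passed the minimum of 25% and 153 met the whole stepwise rule, and the median ratio of all 207 was 1.38. These values, and those by class below, come from the counts that chose the genes. They describe the selection and do not support it. Neither set was counted over all genes with the minimum levels. In the class where its mean was highest, a gene was higher at 4S in 180 cases (with intervals apart in 130) and higher at 13S in 27 (with intervals apart in 10). The 10 genes were EHD3, GXYLT1, LMO2, PALD1 and TSPAN6 in blood and endothelial-like cells, CTH, CTSV and TXNRD3 in notochord-like cells, DKK3 in endoderm-like and CXCL14 in surface ectoderm-like cells.

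**Figure D5:**
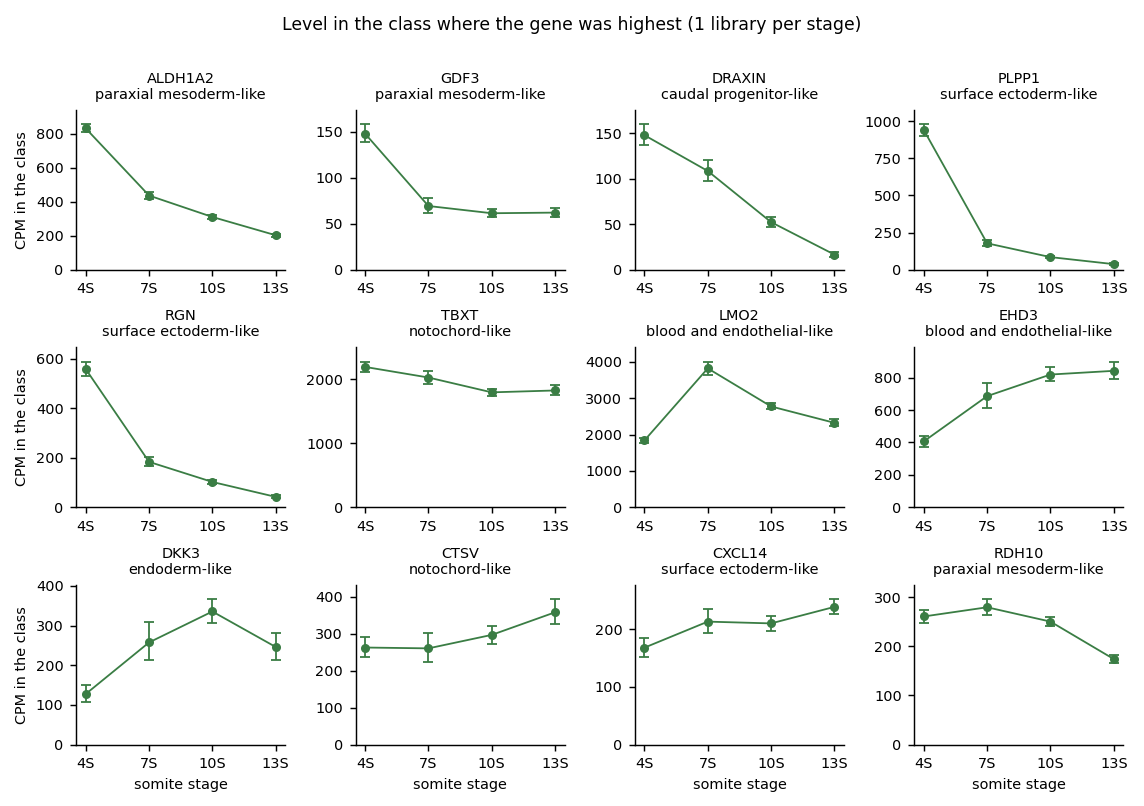
CPM of 12 genes by stage inside the class where each had its highest mean, with exact 95% Poisson intervals for counting error. ALDH1A2, GDF3, DRAXIN, PLPP1 and RGN were lower at 13S than at 4S in that class, whereas LMO2, EHD3, DKK3, CTSV and CXCL14 were higher.

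Most of the remaining genes had smaller ratios. Mitochondrial genes were led in abundance by CYCS, the electron carrier cytochrome c, with 1722 (1709 to 1736), 1489 (1474 to 1505), 1246 (1238 to 1255) and 1075 (1066 to 1084) CPM. MDH2, the malate dehydrogenase of the citric acid cycle, had 797, 579, 574 and 532 CPM. NFS1, the desulfurase of iron-sulfur cluster assembly, had 80.5, 73.3, 51.9 and 43.4 CPM, and the ADP/ATP carrier SLC25A4 had 66.7, 49.0, 44.3 and 37.4 CPM. Of 60 mitochondrial ribosomal proteins with the minimum levels, 7 were chosen (11.7%, against 8.32% of all 2620 genes) and 50 were higher at 4S. The family was picked after its values were seen, and its median ratio was 1.16, against 1.09 over the 2620 genes. All 11 genes of the mitochondrial genome with the minimum levels were lower at 4S than at 13S, with a median ratio of 0.528.

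CYCS differed little between classes, with means from 1145 CPM in endoderm-like to 1539 in blood and endothelial-like cells, and it was lower at 13S in all 8. Within caudal progenitor-like cells CYCS ran through 1772, 1565, 1350.2 and 1132 CPM.

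Genes of the nucleolus, where ribosomes are assembled, held some of the most abundant transcripts. NPM1 (nucleophosmin) had 3801 (3781 to 3821), 3381 (3358 to 3404), 3212 (3198 to 3226) and 2954 (2939 to 2968) CPM, and NCL (nucleolin) had 1673 (1660.3 to 1687), 1556 (1540.0 to 1571), 1326 (1317 to 1335) and 1239 (1229.9 to 1249) CPM. GNL3, a nucleolar GTPase, had 248, 224, 202 and 196 CPM, and SDAD1, a factor of large subunit assembly, had 72.1, 62.0, 60.2 and 56.1 CPM. They were the 4 chosen among 26 ribosome biogenesis genes with the minimum levels (15.4%, against 8.32% of all 2620 genes). Of the 26, 23 were higher at 4S (median ratio 1.20 against 1.09). Both NPM1 and NCL were lowest in notochord-like cells, NPM1 with 1981 ± 184 CPM (log2 difference -0.75 ± 0.04, adjusted p = 5.7e-10) and NCL with 934 ± 118 CPM (log2 difference -0.62 ± 0.05, adjusted p = 5.6e-08). NCL was higher in lateral and intermediate mesoderm-like cells (log2 difference 0.25 ± 0.04, adjusted p = 9.2e-04). None of 32 translation factors was chosen, although 24 of them were higher at 4S.

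The secretory route held the largest number of genes. DAD1, RPN1 and OSTC, of the oligosaccharyltransferase that adds sugars to nascent proteins, were 3 of 8 subunits with the minimum levels, and TMED2, TMED7 and TMED10, cargo receptors between the endoplasmic reticulum and the Golgi, were 3 of 4. EMC2, EMC3 and MMGT1, of the complex that inserts membrane proteins, were 3 of 6, although EMC2 met the rule under none of the 6 other scalings and weightings. DAD1 and TMED2 met it under 2 of the 6 and RPN1 under 3. OSTC, TMED7, TMED10, EMC3 and MMGT1 met it under all 6. These families were picked after their values were seen. DAD1 had 535, 465, 456 and 425 CPM, and RPN1 had 281, 255, 240.3 and 221 CPM. The disulfide isomerases P4HB, with 363, 341, 308 and 255 CPM, and PDIA3, with 393, 385, 312 and 264 CPM, were 2 of 34 chaperone and folding genes with the minimum levels, of which 19 were higher and 15 lower at 4S.

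DAD1 (log2 difference 0.42 ± 0.06, adjusted p = 5.2e-05) and PDIA3 (log2 difference 0.71 ± 0.06, adjusted p = 2.8e-07) were higher in notochord-like cells. P4HB (log2 difference 0.73 ± 0.08, adjusted p = 2.3e-08) and RPN1 (log2 difference 0.51 ± 0.07, adjusted p = 1.5e-06) were higher in endoderm-like cells. PDIA3 was also called higher in endoderm-like and blood and endothelial-like cells. P4HB was also called higher in notochord-like, blood and endothelial-like, lateral and intermediate mesoderm-like and surface ectoderm-like cells. Within the endoderm-like class P4HB ran from 474 CPM at 4S to 523 CPM at 13S, so it was not lower at 13S there.

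Of 6 cathepsins with the minimum levels, the lysosomal proteases CTSC, CTSD, CTSV and CTSZ were chosen and all 6 were higher at 4S, another family picked after its values were seen. CTSC stood at 116 (112 to 119), 86.9 (83.3 to 90.7), 70.6 (68.6 to 72.7) and 62.2 (60.1 to 64.4) CPM, and CTSV had 134, 119, 99.4 and 81.4 CPM. CTSC was higher in endoderm-like cells (179 ± 57.3 CPM, log2 difference 1.09 ± 0.09, adjusted p = 3.4e-11), where it ran through 259, 183, 142 and 133 CPM.

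Among cell division genes, CDC20, an activator of the anaphase-promoting complex, had 219, 181, 166 and 155 CPM, and KIF23, a kinesin of cytokinesis, had 76.3, 67.7, 63.1 and 57.2 CPM. They were 2 of 30 genes of the G2/M list with the minimum levels (6.67%, against 8.32% of all 2620 genes), and none of 16 genes of the S phase list was chosen. The mitotic cyclin CCNB1 had 241, 181, 176 and 164 CPM. All 3 were higher in neural-like cells (CDC20 log2 difference 0.29 ± 0.05, adjusted p = 0.0036, KIF23 log2 difference 0.55 ± 0.06, adjusted p = 2.7e-04 and CCNB1 log2 difference 0.33 ± 0.07, adjusted p = 0.0081).

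GPX4, which reduces lipid peroxides, had 712, 614, 551 and 497 CPM and was higher in surface ectoderm-like cells (log2 difference 0.33 ± 0.06, adjusted p = 0.0016). RANBP1, a regulator of nuclear transport, had 559.7, 542, 495 and 443 CPM. PSMB3, a core subunit of the proteasome, had 397, 376, 319.7 and 297 CPM. It was the 1 chosen among 27 proteasome and ubiquitin genes (3.70%, against 8.32% of all 2620 genes). Of the 27, 26 were higher at 4S (median ratio 1.13, against 1.09 over the 2620 genes). SKP1, of the SCF ubiquitin ligase, had 396, 376, 339 and 311 CPM and was higher in notochord-like cells (log2 difference 0.45 ± 0.06, adjusted p = 2.8e-05).

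PFKL, a phosphofructokinase, was the 1 chosen among 12 glycolysis genes, 6 of them higher and 6 lower at 4S, with 79.5, 76.0, 54.7 and 43.5 CPM. INSIG1 and HMGCS1, of the control and synthesis of sterols, were 2 of 14 and had 112, 110.2, 94.9 and 68.4 CPM and 50.1, 38.9, 38.0 and 36.0 CPM. UROD, a haem synthesis enzyme, had 83.3, 72.4, 65.4 and 60.2 CPM. No gene was chosen from the lists of FGF pathway genes (4 with the minimum levels), heterochronic RNA-binding factors (4), splicing factors (33), one-carbon, serine and nucleotide synthesis (15), the growth factor axis (6), cytoskeleton (26), yolk and lipid carriers (3) or dissociation stress (2).

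On the sex chromosomes, 9 of the 207 genes were Z-linked in the RefSeq annotation of the GRCg7b assembly, in which 199 of the genes were found. Among them were PLPP1, SMAD2Z, CTSV and HMGCS1. Of 96 Z-linked genes with the minimum levels the median ratio was 1.12, against 1.09 for 2246 autosomal genes. The sex of the pooled embryos was not known.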

How the data were processed

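Single-cell RNA from 4 chick trunk libraries, 1 per stage, was analysed. The deposited values are UMI counts per gene and cell, not normalized. The authors aligned the reads to GRCg6a with Cell Ranger 4.0.0, counted UMIs with DropEst, and filtered cells by total counts, mitochondrial share and Scrublet doublet score. No further doublet caller was run. The stage of each cell was read from its name, and 0 cells stayed unmapped. Free RNA was not removed, so low class means may include it.

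Cells with fewer than 2500 UMIs were left out. Counts were summed per stage and scaled to CPM with exact Poisson intervals at 95%. Clusters followed the settings of the study (40 principal components, Harmony over libraries, 10 neighbours, Leiden at resolution 3.5) on 1210 variable genes, with the 218 genes of the rule left out. Harmony was written anew in numpy. Of 96 listed markers 88 were found, and TBXT and LMO2, being members, were left out of naming. The thresholds for naming were set after the clusters were seen. Sums per library and class were tested against all other cells of the same library with edgeR 4.0.16 (quasi-likelihood, TMM, filterByExpr, library as a block), and p-values were adjusted by Benjamini-Hochberg over 11257 to 11704 genes per class, at a threshold of 0.05. DESeq2 1.42.0 was an alternative.

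The members and lists were chosen with earlier results of these data known. Roles, families and some named genes were chosen after their values were seen. The other named genes were the 10 with the largest ratio, the 10 highest at 4S, the 3 with the largest difference in each class, up to 5 per list, those next to the minimum ratio, and members that the paper's text on chick cells names. RefSeq gene names and chromosomes came from GRCg7b, and no coordinates or sequences were used. Some results are not reported here.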

Additional observations from a re-analysis of the deposited data

How the results depend on the processing

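No paired analysis was possible because the stages share only replicate number 1; the class tests held the library as a block. With a minimum ratio of 1.5 the rule gave 68 genes. Leaving out 1 library in turn gave 162 to 801 genes (162 without 13S, 801 without 4S, 452 without 7S), of which 93 of the 801 were among the 207. Other scalings and weightings of the libraries gave 165 to 228 genes, the highest number both with thinned cells and with equal class weight without unnamed cells, the latter chosen after seeing the data. The 165 came with totals without mitochondrial genes and genes above 1%, and 161 of them were among the 207. Of the 228 genes with thinned cells, 171 were among the 207. Without the library block the genes called higher numbered 2 in caudal progenitor-like, 12 in paraxial mesoderm-like, 2 in lateral and intermediate mesoderm-like, 9 in blood and endothelial-like, 23 in notochord-like, 2 in neural-like, 18 in endoderm-like and 10 in surface ectoderm-like cells. Without integration they numbered 14 in caudal progenitor-like and 9 in lateral and intermediate mesoderm-like cells, and with no filter on low counts 13 in neural-like cells. With 1 library left out the range was 23 to 46 in lateral and intermediate mesoderm-like, 14 to 41 in blood and endothelial-like, 13 to 23 in neural-like and 28 to 53 in surface ectoderm-like cells. The cause of these differences was not tested. Of 103 alternative counts 83 lay within 1.5 times the reported one. For 65 named results of a gene in a class, 685 of 715 alternatives kept the call, 30 lost it (24 of them without the block) and 0 reversed it. With 1 library per stage, no difference between stages could be set against the spread between embryos.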
